A study of Mus musculus with 114 samples.

Results

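Tnf, Tnfrsf1a, Tnfrsf1b, Il1b, Il1rn, Il1r1, Il18, Nlrp3 and Casp1 were followed in the RNA of perigonadal adipocytes from mice on a chow or a high fat diet. These 9 genes were chosen by symbol as the genes of tumor necrosis factor (TNF), interleukin 1 (IL-1) and the inflammasome, without use of their values, and all of them were among the 29132 genes listed. The libraries came from male C57BL/6J mice that received CD (chow) or HFD (a high fat diet) from 6 weeks of age. The CD groups held 6 mice after 8 weeks (14 weeks of age), 6 mice after 20 weeks (26 weeks of age) and 8 mice after 34 weeks (40 weeks of age). The HFD groups held 6 mice at each of these times. The cells were those that floated after collagenase digestion of the fat pad, which were not sorted further, and each of the 38 mice had 1 column of CPM (read counts scaled to 1000000 reads on genes) in which its 3 technical replicates were merged.

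TNF is a cytokine made mainly by activated macrophages that blunts insulin signalling and adipogenesis in adipocytes, and it acts through the receptors TNFR1 (Tnfrsf1a) and TNFR2 (Tnfrsf1b). IL-1β and IL-18 are made as inactive precursors. An inflammasome is a protein complex in which a sensor such as NLRP3 activates caspase-1 (Casp1), which cleaves both precursors. IL-1β binds the receptor encoded by Il1r1, and the IL-1 receptor antagonist encoded by Il1rn occupies the same receptor without signalling. In obesity these genes are studied as part of the low grade inflammation of visceral fat, in which macrophages surround adipocytes.

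The depth was 9275711 to 15480388 reads on genes per mouse, so 1 read equalled 0.0646 to 0.108 CPM. Every HFD library of 8 weeks was deeper (13201234 to 15480388 reads) than every CD library of that time (10562845 to 12611013 reads). The adipocyte marker Adipoq (adiponectin) was at 2068 to 6653 CPM over the 38 libraries. limma was run on the 10343 of 29132 genes whose mean log2(CPM + 1) over the 38 mice exceeded 2.0, with all 6 groups in 1 fit and p-values adjusted by the Benjamini-Hochberg method over these genes. A gene with an adjusted p under 0.05 is said to have passed the test. All 9 genes were above the level cut, of which Il18 was the lowest with a mean of 2.06 and only 22 to 99 reads per mouse. Fold changes are on the scale of log2(CPM + 1) and are understated for low genes.

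To compare levels between genes, CPM was divided by the length of the exons of each gene in kilobases. In the 8 week CD mice Tnfrsf1a and Il1r1 had the highest medians of the 9 genes, with 137 and 32.0 CPM per kilobase. Tnfrsf1b and Tnf were close, with medians of 14.8 and 13.1 CPM per kilobase. Their mice overlapped, at 7.52 to 37.6 for Tnfrsf1b and 6.01 to 48.9 for Tnf, and which was higher differed between mice. Casp1, Nlrp3, Il1b, Il18 and Il1rn had medians of 6.86, 3.43, 2.50, 2.41 and 1.57. In the 20 week HFD mice the order was another one, because the cytokines led with medians of 570.2 CPM per kilobase for Tnf and 429 for Il1b. Tnfrsf1b came next with a median of 139, ahead of Tnfrsf1a with 90.9 and Nlrp3 with 81.7, and Il1rn, Casp1 and Il1r1 had 38.1, 37.4 and 21.2 CPM per kilobase. Il18 was the lowest gene in that group with a median of 3.22.

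**Figure D1:**
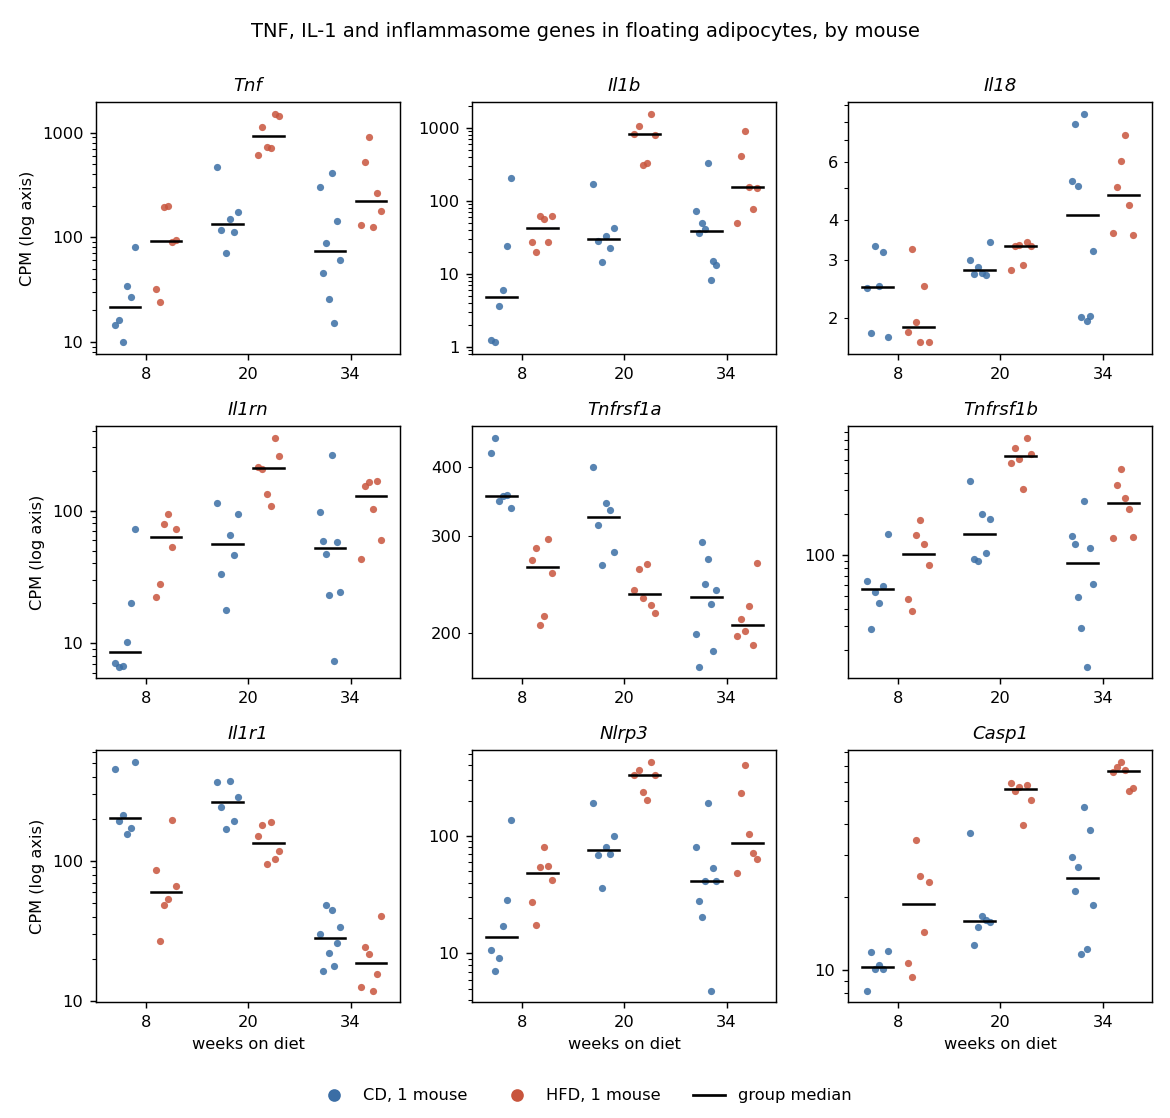
CPM of each of the 9 genes on a logarithmic axis against weeks on diet, with 1 point per mouse (blue, CD, and red, HFD; 6 mice per group and 8 CD mice at 34 weeks) and a bar at the group median. The 20 week HFD mice lay above all 20 week CD mice for Tnf, Il1b, Nlrp3 and Casp1, whereas the HFD mice lay low for Tnfrsf1a and Il1r1 at 8 weeks and Il1r1 was low in both diets at 34 weeks.

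The sequences just upstream of these genes are shown because 6 of the genes moved together between mice, as described below, and differ in the promoter motifs they carry. RefSeq promoters on GRCm38.p6, the build of the deposited values, were given for all 9 genes, 13 in number, and the 250 bases before each start were searched on both strands for TATAAA (the TATA box), TGANTCA (an AP-1 site), GAGGAA (an ETS site of the PU.1 kind) and the NF-kB consensus. Of 32851 promoters, 12.4% held TATAAA, 6.75% TGANTCA, 23.3% GAGGAA and 7.25% the NF-kB consensus. The promoters of Tnf (chr17:35202008-35202257, minus strand), Il1b (chr2:129371140-129371389, minus strand), Il1rn (chr2:24336610-24336859, plus strand), Nlrp3 (chr11:59541319-59541568, plus strand) and Tnfrsf1a (chr6:125349473-125349722, plus strand) follow in the direction of transcription, with each motif match in capitals.
Tnf: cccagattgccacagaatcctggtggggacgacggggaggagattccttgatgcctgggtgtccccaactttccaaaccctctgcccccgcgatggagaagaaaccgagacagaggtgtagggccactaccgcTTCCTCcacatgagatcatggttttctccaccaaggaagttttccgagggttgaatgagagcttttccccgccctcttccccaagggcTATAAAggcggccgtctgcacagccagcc
Il1b: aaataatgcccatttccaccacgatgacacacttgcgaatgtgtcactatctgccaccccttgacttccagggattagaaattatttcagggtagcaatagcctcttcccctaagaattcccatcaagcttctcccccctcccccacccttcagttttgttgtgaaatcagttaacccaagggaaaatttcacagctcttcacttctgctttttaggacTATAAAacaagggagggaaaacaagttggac
Il1rn: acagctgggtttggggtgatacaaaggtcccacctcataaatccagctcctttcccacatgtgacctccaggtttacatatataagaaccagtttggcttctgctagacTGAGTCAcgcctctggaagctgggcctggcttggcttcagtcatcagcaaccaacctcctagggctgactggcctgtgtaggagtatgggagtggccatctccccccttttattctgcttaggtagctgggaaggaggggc
Nlrp3: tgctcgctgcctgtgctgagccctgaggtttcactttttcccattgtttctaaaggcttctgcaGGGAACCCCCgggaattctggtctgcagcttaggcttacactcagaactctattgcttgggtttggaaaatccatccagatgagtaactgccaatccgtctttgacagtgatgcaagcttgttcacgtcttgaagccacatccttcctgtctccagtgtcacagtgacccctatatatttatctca
Tnfrsf1a: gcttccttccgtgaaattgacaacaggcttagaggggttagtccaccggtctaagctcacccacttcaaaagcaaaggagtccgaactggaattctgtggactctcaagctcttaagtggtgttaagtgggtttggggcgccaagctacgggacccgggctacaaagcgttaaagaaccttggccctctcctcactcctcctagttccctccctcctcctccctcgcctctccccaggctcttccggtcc

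In Tnf the TATAAA lay 29 to 24 bases upstream of the start and a GAGGAA on the reverse strand 117 to 112 bases upstream. The Il1b promoter had its TATAAA 31 to 26 bases upstream and no match to the other motifs. The capitals of Il1rn mark a TGANTCA 141 to 135 bases upstream, and those of Nlrp3 an NF-kB consensus 186 to 177 bases upstream, each of which reads as a match on both strands. Another Nlrp3 promoter, at chr11:59542436-59542685, held 3 matches to GAGGAA. Il1rn had further promoters at chr2:24345041-24345290 and chr2:24345121-24345370, and neither held a match. No match was found in the 250 bases of Tnfrsf1a. Single matches to GAGGAA stood in the promoters of Tnfrsf1b and Casp1, Il18 had a TATAAA on the reverse strand 175 to 170 bases upstream, and 1 of the 2 promoters of Il1r1 had an NF-kB consensus. These matches describe the letters of the windows and not binding.

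After 8 weeks, 6 of the 9 genes differed between the diets. Tnf, Il1b, Il1rn and Casp1 were higher in HFD mice, by 3.27-, 4.11-, 3.68- and 1.63-fold, while the receptors Il1r1 and Tnfrsf1a were 3.82- and 1.49-fold lower. Tnfrsf1b, Il18 and Nlrp3 did not pass the test. Thus 4 of 9 genes were higher and 2 lower, where 29.8% of all genes tested were higher and 15.1% lower (after TMM, the trimmed mean scaling of edgeR, 22.2% and 22.3%). With TMM scaling the genes called were 2 higher (Tnf and Il1rn) and 2 lower (Tnfrsf1a and Il1r1), as Il1b and Casp1 missed the threshold (adjusted p = 0.0577 and 0.0521), so the 9 genes were then called about as often as all genes. Only for Tnfrsf1a did the groups not overlap, which was the case in 22.8% of all genes. The median difference of the 9 genes was 0.70 on the log2 scale, beside 0.11 for all genes tested.

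Tnf (Entrez 21926, chromosome 17, 35199367 to 35202007) had 9.85, 21.5 and 80.2 CPM as lowest, median and highest value of the 6 CD mice at 8 weeks and 23.8, 92.2 and 200.2 CPM in the 6 HFD mice. Of the HFD mice 4 exceeded every CD mouse, and the log2 difference was 1.71 (standard error 0.65, adjusted p = 0.0320). Its call was lost when any 1 of CD mice 1, 2 and 3 or HFD mice 3, 4 and 6 was left out (adjusted p = 0.0560 to 0.0898).
Il1b (Entrez 16176, chromosome 2, 129364569 to 129371164) was the most uneven gene, at 1.14, 4.76 and 203.6 CPM in CD and 19.8, 41.7 and 62.7 CPM in HFD mice. CD mouse 6, which held the highest CPM of that group in 7 of the 9 genes, lay above all HFD mice, and the means of 39.9 CPM in CD and 42.5 CPM in HFD mice were close. The log2 difference was 2.04 (standard error 0.85, adjusted p = 0.0499) with limma, which averages logarithms, but -0.041 with edgeR (adjusted p = 0.975) and -0.035 with DESeq2 (adjusted p = 0.978) on recovered reads. Leaving out 1 mouse ended the limma call in 9 of 12 cases, namely CD mice 1 to 4 and HFD mice 1 and 3 to 6 (adjusted p = 0.0535 to 0.138). The exons of Il1b overlap those of Il1bos on the opposite strand, and since it is not stated whether counting used strand, reads of these genes may be mixed.

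Il1rn (Entrez 16181, chromosome 2, 24336860 to 24351491) was at 6.69, 8.66 and 72.2 CPM in CD and 22.3, 62.9 and 94.5 CPM in HFD mice at 8 weeks. The antagonist was higher in HFD mice, with a log2 difference of 1.88 (standard error 0.60, adjusted p = 0.0112). For its agonist Il1b the direction depended on the tool, as given above. edgeR did not call it (adjusted p = 0.0663), and leaving out 1 mouse never ended the limma call. Casp1 (Entrez 12362, chromosome 9, 5298517 to 5307281) was at 8.20, 10.3 and 12.0 CPM in CD and 9.32, 18.7 and 34.4 CPM in HFD mice, and 4 HFD mice exceeded all CD mice. Its log2 difference was 0.70 (standard error 0.27, adjusted p = 0.0350), a call that ended without any 1 of CD mice 1, 3 and 5 and HFD mice 3, 4 and 6 (adjusted p = 0.0532 to 0.132).

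No omission of 1 mouse ended the calls of the lower receptors. Tnfrsf1a (Entrez 21937, chromosome 6, 125349723 to 125362483) was at 337, 355 and 451 CPM in CD and 207, 264 and 295 CPM in HFD mice. All 6 HFD mice lay below all CD mice, and the log2 difference was -0.57 (standard error 0.12, adjusted p = 0.000278). Il1r1 (Entrez 16177, chromosome 1, 40222480 to 40316201) was at 156, 204 and 515 CPM in CD and 26.8, 59.8 and 197.1 CPM in HFD mice. Of the HFD mice 5 lay below all CD mice, with a log2 difference of -1.93 (standard error 0.36, adjusted p = 9.64e-05). Nlrp3 (Entrez 216799, chromosome 11, 59541569 to 59566955) was at 7.09, 13.9 and 136 CPM in CD and 17.5, 48.2 and 80.9 CPM in HFD mice (adjusted p = 0.159), and it passed the test without CD mouse 6 (log2 difference 1.61, adjusted p = 0.0257). Tnfrsf1b was at 28.7, 56.5 and 144 CPM in CD and 39.0, 102 and 182 CPM in HFD mice (log2 difference 0.60, adjusted p = 0.314), and Il18 at 1.74, 2.48 and 3.31 CPM in CD and 1.68, 1.87 and 3.26 CPM in HFD mice. Of the 6 calls at 8 weeks, 3 were left without CD mouse 1 or 3 or HFD mouse 3, 4 or 6, and 3 without the filter on low values.

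After 20 weeks, the differences were most frequent. Il1b was 18.7-fold higher in HFD mice, Tnf 6.40-fold, Nlrp3 3.77-fold, Il1rn 3.74-fold, Tnfrsf1b 3.42-fold and Casp1 2.89-fold. Il1r1 and Tnfrsf1a were 1.93- and 1.33-fold lower. With 6 genes higher and 2 lower, 8 of 9 passed the test, where 38.3% of all genes tested were higher and 18.7% lower (by TMM scaling 27.1% and 31.4%). The groups did not overlap in 4 genes, Tnf, Il1b, Nlrp3 and Casp1, beside 37.2% of all genes. The median difference was 1.77 for the 9 genes and 0.14 for all genes tested. The same 8 genes were called under each of the 11 other settings that kept all mice.

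Il1b was at 14.3, 30.1 and 169 CPM (lowest, median and highest) in the 20 week CD mice and at 306, 819 and 1564 CPM in the HFD mice. The lowest HFD mouse lay well above the highest CD mouse, and the log2 difference was 4.23 (standard error 0.85, adjusted p = 9.1e-05). Tnf was at 69.8, 133 and 468 CPM in CD and 615, 934 and 1520 CPM in HFD mice (log2 difference 2.68, standard error 0.65, adjusted p = 0.000766). CD mouse 1 was the highest of its group in 7 of the 9 genes, among them Tnf, Il1b and Casp1.
Casp1 was at 12.7, 15.9 and 36.7 CPM in CD and 39.7, 56.0 and 59.4 CPM in HFD mice (log2 difference 1.53, standard error 0.27, adjusted p = 1.79e-05). The sensor Nlrp3 was at 35.9, 75.4 and 192 CPM in CD and 204, 332 and 429 CPM in HFD mice (log2 difference 1.92, standard error 0.62, adjusted p = 0.0089). Neither gene overlapped between the diets.

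Tnfrsf1b (Entrez 21938, chromosome 4, 145212368 to 145246870), the receptor TNFR2 that is found mainly on immune and endothelial cells, was at 91.2, 143 and 351 CPM in CD and 308, 531 and 729 CPM in HFD mice. All but 1 of the HFD mice exceeded the highest CD mouse (log2 difference 1.77, standard error 0.48, adjusted p = 0.0023). Tnfrsf1a, the receptor found on most cells, was at 266, 324 and 399 CPM in CD and 217, 235 and 267 CPM in HFD mice. Its groups touched only at CD mouse 3 (log2 difference -0.42, standard error 0.12, adjusted p = 0.00304). Il1rn was at 18.0, 55.5 and 113 CPM in CD and 109, 211 and 355 CPM in HFD mice (log2 difference 1.90, standard error 0.60, adjusted p = 0.0071).
Il1r1 was at 169, 266 and 374 CPM in CD and 95.3, 135 and 191 CPM in HFD mice (log2 difference -0.95, standard error 0.36, adjusted p = 0.0249). This was the least secure of the 8 calls, which ended without CD mouse 1 or 4 or HFD mouse 3 or 5 (adjusted p = 0.0542 to 0.0598).

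Il18 (Entrez 16173, chromosome 9, 50554700 to 50581841) was the exception at 20 weeks, at 2.71, 2.81 and 3.43 CPM in CD and 2.81, 3.32 and 3.41 CPM in HFD mice. The log2 difference was 0.10 (standard error 0.22, adjusted p = 0.729), and its sign turned with TMM factors (-0.05). At 8 weeks the difference of Il18 was -0.15 (adjusted p = 0.589) and at 34 weeks, with 1.95, 4.14 and 8.47 CPM in CD and 3.59, 4.75 and 7.28 CPM in HFD mice, 0.25 (adjusted p = 0.345).

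After 34 weeks, 5 genes were higher in HFD mice and none was lower. Tnf was 3.28-fold, Il1b 4.83-fold, Tnfrsf1b 3.20-fold, Nlrp3 2.94-fold and Casp1 2.70-fold higher, where 27.5% of all genes tested were higher and 15.7% lower (by TMM scaling 22.2% and 21.8%). No gene was lower with limma, edgeR or DESeq2, and limma gave 6 genes an unadjusted p under 0.05, all of them higher. Only Casp1 did not overlap between the diets, which was the case in 2.46% of all genes. The median difference was 1.43 for the 9 genes and 0.07 for all genes tested.

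Casp1 was at 11.6, 23.9 and 47.3 CPM in the 8 CD mice and at 54.9, 66.5 and 72.7 CPM in the 6 HFD mice at 34 weeks (log2 difference 1.43, standard error 0.26, adjusted p = 9.61e-05). Its HFD mice lay within a 1.32-fold range. Tnfrsf1b was at 15.2, 87.4 and 249 CPM in CD and 133, 241 and 431 CPM in HFD mice (log2 difference 1.68, standard error 0.45, adjusted p = 0.00367). These calls held with any 1 mouse left out and with each of the other settings.
Tnf was at 15.2, 74.4 and 411 CPM in CD and 125, 222 and 898 CPM in HFD mice, and only 2 HFD mice exceeded every CD mouse (log2 difference 1.72, standard error 0.61, adjusted p = 0.0226). Il1b was at 8.13, 38.7 and 333 CPM in CD and 48.8, 153 and 905 CPM in HFD mice (log2 difference 2.27, standard error 0.80, adjusted p = 0.0213). Nlrp3 was at 4.82, 41.4 and 189 CPM in CD and 48.2, 87.6 and 401 CPM in HFD mice (log2 difference 1.56, standard error 0.58, adjusted p = 0.0292).
These 3 calls were lost with edgeR (adjusted p = 0.0689, 0.0559 and 0.0567; DESeq2 gave 0.0540, 0.0378 and 0.0451) and without CD mouse 6, HFD mouse 2 or HFD mouse 3, each of which left 2 genes called. The call of Tnf also ended without CD mouse 4 and that of Nlrp3 without CD mouse 3. The highest adjusted p without 1 mouse was 0.0881 for Tnf, 0.0851 for Il1b and 0.1145 for Nlrp3.

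Il1rn was at 7.36, 52.5 and 265 CPM in CD and 43.0, 128 and 168 CPM in HFD mice at 34 weeks and did not pass (log2 difference 1.14, adjusted p = 0.0943). It passed without CD mouse 5, which was the highest CD mouse in 7 of the 9 genes, or without HFD mouse 1 (adjusted p = 0.0177 and 0.0492). Both receptors that were lower earlier overlapped widely by now. Tnfrsf1a was at 174, 232 and 292 CPM in CD and 190.4, 207 and 267 CPM in HFD mice (log2 difference -0.08, adjusted p = 0.589), and Il1r1 at 16.2, 27.8 and 48.2 CPM in CD and 11.8, 18.5 and 40.3 CPM in HFD mice (log2 difference -0.52, adjusted p = 0.212).

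**Figure D2:**
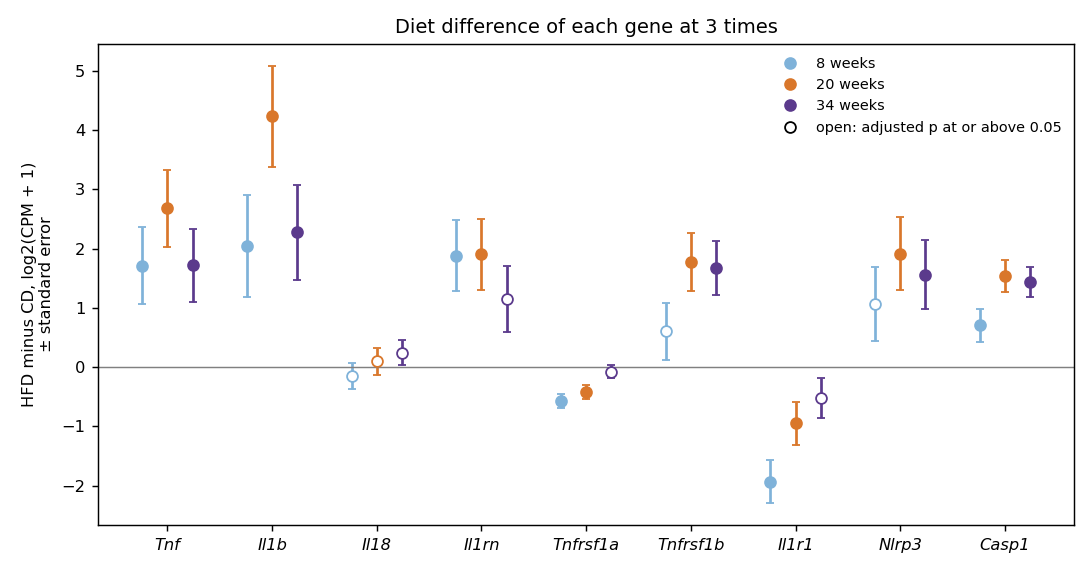
Difference between HFD and CD mice in log2(CPM + 1) with its standard error for each of the 9 genes at 8, 20 and 34 weeks, with filled points for an adjusted p under 0.05 (limma). Tnf, Il1b and Casp1 were above 0 and filled at all 3 times, Il18 was open at all 3, and Tnfrsf1a and Il1r1 were below 0 and filled at 8 and 20 weeks.

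Whether the diet difference itself changed between times was tested with interaction terms. Between 8 and 20 weeks and between 20 and 34 weeks 0 of the 9 genes passed with limma, beside 4.49% and 10.5% of all genes tested. With TMM factors 2.63% and 2.73% of all genes were called with a larger and a smaller difference at 20 than at 8 weeks, and 7.42% and 4.51% at 34 than at 20 weeks, where the unscaled CPM gave 2.81% and 1.67%, and 4.22% and 6.31%. At an unadjusted p under 0.05 there was 1 gene in each, Casp1 (p = 0.0390) and Tnfrsf1a (p = 0.0413). edgeR gave 0 calls in both, and DESeq2 called Il1b between 8 and 20 weeks and no gene between 20 and 34 weeks. With array weights in limma, Il1r1 and Casp1 were called between 8 and 20 weeks and Il1b between 20 and 34 weeks. Whether the diet differences changed with time thus depended on the setting, and Il1b had 2.04, 4.23 and 2.27 at the 3 times.

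The change with time was then examined within each diet. These comparisons share mice with each other and with those of the diets. The times were different mice of different age, so time on a diet cannot be told apart from age or from other differences between the harvests. In HFD mice from 8 to 20 weeks, 7 of the 9 genes rose and none fell, where 21.2% of all genes tested rose and 15.3% fell. Il1b rose 17.6-fold, Tnf 11.9-fold, Nlrp3 7.24-fold, Tnfrsf1b 5.75-fold, Il1rn 3.79-fold, Casp1 2.91-fold and Il1r1 2.04-fold, with adjusted p between 0.000127 for Casp1 and 0.0251 for Il1r1. All 20 week HFD mice lay above all 8 week HFD mice in the first 6 of these genes, beside 24.6% of all genes without overlap, and the groups overlapped in Il1r1. The Il1r1 call was absent with edgeR (adjusted p = 0.0964) and DESeq2 (0.0709), and it ended without HFD mouse 2 or 3 of 8 weeks or 2 or 4 of 20 weeks (0.0520 to 0.0894). limma, edgeR and DESeq2 found no lower gene, and limma gave an unadjusted p under 0.05 to these 7 genes only.

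From 20 to 34 weeks in HFD mice, Tnf and Il1r1 fell (log2 differences -1.85 and -2.76, adjusted p = 0.0307 and 3.59e-06). No gene passed as higher with limma, edgeR or DESeq2 on all groups, but Il18 did in limma with array weights and in limma with only these groups in the fit. Of the 6 genes with an unadjusted p under 0.05 in limma only Il18 was higher (log2 difference 0.49, adjusted p = 0.0915), with all 6 mice of 34 weeks above all of 20 weeks. Il18 and Il1r1 did not overlap between these times, as 12% of all genes. Over all genes tested, 17.8% rose and 12.5% fell (13.3% and 14.5% with TMM factors). The Tnf call was lost with edgeR (adjusted p = 0.0601) and without any 1 of 6 mice, HFD mice 2, 5 and 6 of 20 weeks and 1, 4 and 6 of 34 weeks, which left Il1r1 as the only call. Without HFD mouse 3 of 34 weeks, the highest of its group in 5 of the 9 genes, 5 genes were called. Casp1 had a median of 56.0 CPM at 20 and 66.5 CPM at 34 weeks (log2 difference 0.27, adjusted p = 0.474).

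In CD mice from 8 to 20 weeks, Tnf rose 6.09-fold (log2 difference 2.61, standard error 0.65, adjusted p = 0.0168) and was the only gene called, where 1.7% of all genes tested rose and 1.88% fell. limma gave 6 genes an unadjusted p under 0.05, all of them higher, and edgeR and DESeq2 called 1 and 3 genes, all higher. Casp1 was the only gene without overlap, with all 20 week mice above all 8 week mice (log2 difference 0.71, adjusted p = 0.149), beside 3.73% of all genes. Tnf was not called without CD mouse 3 of 8 weeks (adjusted p = 0.0576). Without CD mouse 6 of 8 weeks, 4 genes were called, and without CD mouse 3 of 20 weeks 2. From 20 to 34 weeks in CD mice, Il1r1, Tnfrsf1a and Tnfrsf1b fell, and they were also the only genes with an unadjusted p under 0.05 in limma and the only calls of edgeR and DESeq2. With array weights Tnfrsf1b was not called, and Il18 and Casp1 were called higher. Over this time 41.1% of all genes tested rose and 21.4% fell (30.4% and 29% with TMM factors). Il1r1 fell 9.09-fold (log2 difference -3.18, standard error 0.34, adjusted p = 2.95e-09), and all 8 of the 34 week mice lay below all 20 week mice, where 20% of all genes did not overlap. The median of all genes tested was 0.17 higher at 34 weeks on the log2 scale, which lies opposite to the fall of these genes. Tnfrsf1a fell by 0.50 on the log2 scale (adjusted p = 0.000213) and Tnfrsf1b by 1.06 (adjusted p = 0.0410), a call that ended without any 1 of CD mice 1, 4 and 6 of 20 weeks or 3, 4, 6 and 8 of 34 weeks (adjusted p = 0.0571 to 0.126). The depth differed between these times without overlap in both diets, with 13091365 to 14292115 reads in CD mice at 20 weeks and 9275711 to 12433584 at 34 weeks.

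The order of the 6 groups differed between genes. For Tnf it rose from 8 week CD through 8 week HFD, 34 week CD, 20 week CD and 34 week HFD to 20 week HFD mice, and the means of log2(CPM + 1) in this order were 4.63, 6.34, 6.35, 7.23, 8.07 and 9.91. Neighbours from 8 week HFD to 34 week HFD mice did not differ beyond their spread, taken as the pooled SD of the 2 groups. Il1b, Il1rn, Tnfrsf1b and Nlrp3 also had 8 week CD mice lowest, 34 week HFD mice next to highest and 20 week HFD mice highest, and in each the 20 week HFD mice differed from the next group beyond the spread. Casp1 had the 34 week HFD mice on top with a mean of 6.02, above the 20 week HFD mice with 5.75 (pooled SD 0.19). For Il1r1 the order ran from 34 week HFD mice with 4.33 and 34 week CD mice with 4.85 to 8 week CD mice with 7.99 and 20 week CD mice with 8.03.

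Ratios of CPM within a mouse are free of the scaling of the library. The log2 differences and tests of the ratios used log2(CPM + 1) of both genes. The added 1 ties these to the scaling and alters them for low values. The ratio of Il1b to Il1rn, cytokine to antagonist, had a median of 0.559 in CD and 0.751 in HFD mice at 8 weeks (log2 difference 0.16, two-sided exact permutation test, p = 0.779). At 20 weeks it was 0.455 to 1.49 with a median of 0.648 in CD mice and 2.29 to 5.03 with a median of 3.504 in HFD mice. The log2 ratio was higher in HFD mice by 2.32, and the exact permutation p of 0.00216 is the smallest that 6 against 6 mice allow (0.00649 adjusted over 6 tests). At 34 weeks the medians were 0.881 and 2.01 (exact permutation p = 0.0653, adjusted 0.0883).

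The ratio of Tnfrsf1b to Tnfrsf1a, TNFR2 to TNFR1, followed a similar course. Its medians at 8 weeks were 0.153 in CD and 0.367 in HFD mice, a log2 difference of 1.17 (exact permutation p = 0.0736, adjusted 0.0883). At 20 weeks the CD mice lay between 0.297 and 0.880 and the HFD mice between 1.15 and 3.24, so Tnfrsf1b had fewer reads than Tnfrsf1a in every CD mouse and more in every HFD mouse (log2 difference 2.19, exact permutation p = 0.00216, adjusted 0.00649). At 34 weeks the medians were 0.434 and 1.16 (log2 difference 1.75, exact permutation p = 0.0133, adjusted 0.0266). These are ratios of reads, not of transcripts per length.

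**Figure D3:**
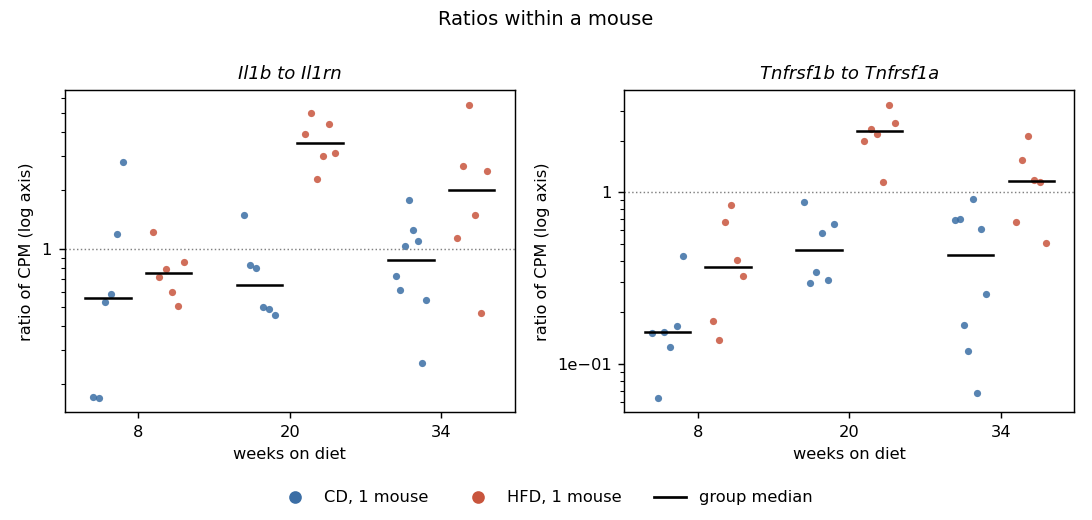
Ratio of CPM of Il1b to Il1rn and of Tnfrsf1b to Tnfrsf1a in each mouse on a logarithmic axis against weeks on diet (blue, CD, and red, HFD; bars, group medians; dotted line, a ratio of 1). At 20 weeks each of the 6 HFD mice exceeded 1 and every one of the CD mice in both ratios.

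Because the fraction was not sorted, markers of other cells were measured beside the 9 genes. Of 11 macrophage markers, all of them tested, 7 were higher in HFD mice at 8 weeks, 8 at 20 weeks, when 1 was lower, and 9 at 34 weeks. Their summed CPM was 304 to 1569 in CD and 1113 to 3143 in HFD mice at 8 weeks, 479 to 3302 and 4368 to 8255 at 20 weeks, and 1189.9 to 12319 and 5064 to 15003 at 34 weeks. No macrophage marker was at 0 in any mouse, and Cd68, a lysosomal protein of macrophages, was at 14.2 to 69.0 CPM in 8 week CD and 385 to 809 CPM in 20 week HFD mice. The summed CPM of 10 adipocyte markers moved the other way, with 48240 to 59588 in CD and 34603 to 46505 in HFD mice at 8 weeks, 41701 to 67407 and 25053 to 35314 at 20 weeks, and 29978 to 63023 and 16562 to 40027 at 34 weeks. Of these 10 adipocyte markers, 2 were lower and 1 higher in HFD mice at 8 weeks, 7 and 1 at 20 weeks, and 9 and 0 at 34 weeks. The sum at 8 weeks included Cfd, at 14950 to 19823 CPM in CD and 805 to 7260 CPM in HFD mice. The part of macrophage or adipocyte markers in the differences of the 9 genes was not tested. More cells of a type cannot be told apart from more RNA per cell.

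Between mice of a group, 6 of the 9 genes varied most with the macrophage markers. Over the 38 mice, as deviations from the group means, the Pearson correlation with their summed level was 0.85 for Il1rn, 0.82 for Tnfrsf1b, 0.79 for Nlrp3, 0.74 for Il1b, 0.71 for Tnf and 0.64 for Casp1. It was 0.48 for Il18, which had few reads, 0.03 for Il1r1 and -0.25 for Tnfrsf1a. The points share libraries and depth, so these values are descriptions.

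**Figure D4:**
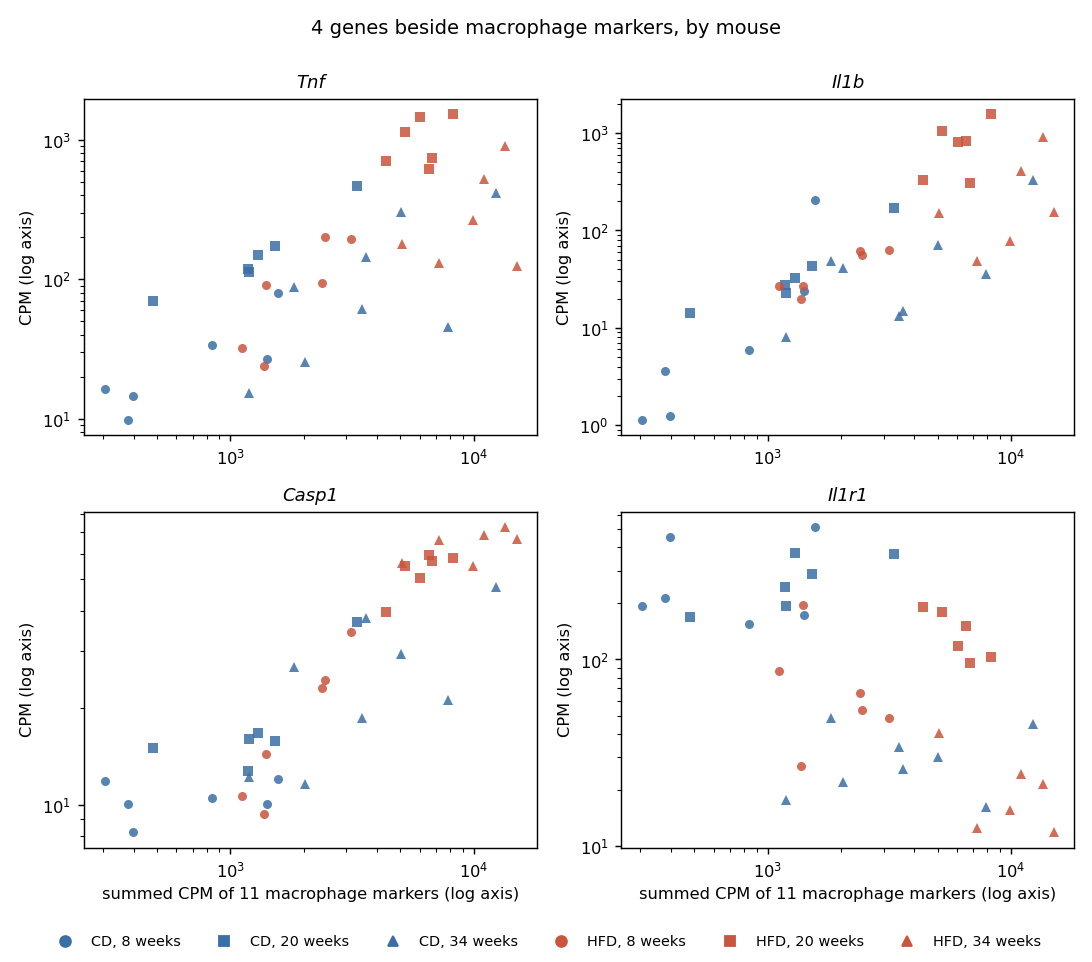
CPM of Tnf, Il1b, Casp1 and Il1r1 against the summed CPM of 11 macrophage markers in each of 38 mice, both on logarithmic axes (blue, CD, and red, HFD; circles, squares and triangles, 8, 20 and 34 weeks). Within groups, Tnf, Il1b and Casp1 tended to lie higher in mice with more marker CPM. Between groups this did not always hold. The median marker sum was 6283 CPM in 20 week and 10465 CPM in 34 week HFD mice. The medians of Tnf were 934 and 222 CPM in these groups, and those of Il1b 819 and 153 CPM. Il1r1 lay at 11.8 to 48.2 CPM in all 34 week mice whatever their marker level.

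Lists for other cells were also summed. The lipid-associated macrophage list had 7 of 8 genes higher at 8 weeks, 7 higher and 1 lower at 20 weeks and 6 higher at 34 weeks, but its sum of 9749 to 20727 CPM included Lpl, which adipocytes express, at 7945 to 18249.6 CPM. Its first gene Trem2 was at 1.57 to 6.58 CPM in 8 week CD and 158 to 376 CPM in 20 week HFD mice. Mast cell markers summed to 0 to 1.26 CPM in 8 and 20 week CD mice, 0.713 to 80.5 CPM in 34 week CD mice and 9.12 to 104 CPM in 20 and 34 week HFD mice. Neutrophil markers summed to 1.70 to 45.7 CPM, and 1 of the 2 tested was higher in HFD mice at 8 weeks. Among them Ly6g was at 0 in all 38 mice, whereas S100a8 and Csf3r were at 0 in none. Monocyte markers summed to 1.10 to 43.1 CPM, and the only 1 tested was higher in HFD mice at 8 and 20 weeks (log2 differences 1.61 and 1.10). Dendritic cell markers summed to 8.48 to 39.5 CPM, and the only 1 tested was lower at 20 weeks (log2 difference -0.77). T cell markers summed to 0.163 to 4.64 CPM, B cell markers to 0.0736 to 5.90 CPM, and markers of epididymis and testis to 0 to 18.1 CPM. Endothelial markers summed to 22.5 to 336 CPM and 5, 4 and 5 of 5 were higher in HFD mice at 8, 20 and 34 weeks, and of the 6 progenitor and fibroblast markers, at 269 to 2349 CPM, 3, 6 and 3 were higher. Mural markers (35.2 to 518 CPM) had 4, 3 and 3 of 5 higher, and mesothelial markers (3.81 to 59.5 CPM) both of the 2 tested at 8 weeks.

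Other genes of the same pathways were taken from 3 lists of 70 genes without the 9, of which 53 were tested. At 8 weeks 16 were higher and 9 lower in HFD mice, at 20 weeks 28 and 7, and at 34 weeks 29 and 2. Over all genes tested these shares were 29.8% and 15.1%, 38.3% and 18.7%, and 27.5% and 15.7%, so at 8 weeks the lists were near the share of all genes. In the inflammasome list, 10 of 17 genes tested were higher at 8 weeks, 13 at 20 weeks and 13 at 34 weeks, and 1 was lower at 8 and at 34 weeks, with median log2 differences of 0.90, 1.58 and 1.23. The adaptor Pycard, which joins sensors to caspase-1, was at 5.64 ± 3.68 CPM in HFD and 1.85 ± 1.70 CPM in CD mice at 8 weeks (6 mice each, SD; log2 difference 1.20, adjusted p = 0.0223). Pstpip1, a pyrin-binding adaptor, was higher at 20 weeks, with 22.8 ± 6.93 CPM in HFD and 3.02 ± 3.22 CPM in CD mice (log2 difference 2.796, adjusted p = 3.29e-06). Naip2, a sensor of bacterial secretion systems, was higher by 1.41, 2.75 and 1.68 on the log2 scale (adjusted p = 0.00871, 2.96e-06 and 0.00143), though its near-identical copies make its reads uncertain. Its partner Nlrc4 was higher at all 3 times, by 0.89, 2.48 and 1.57 (adjusted p = 0.0493, 1.46e-06 and 0.000696). Pycard and Pstpip1 were also called higher at all 3 times. Casp4, the caspase of the noncanonical inflammasome, went the other way at 8 weeks, with 50.0 ± 8.57 CPM in HFD and 108 ± 13.4 CPM in CD mice and no overlap (log2 difference -1.10, adjusted p = 0.00125). The gene lower at 34 weeks was Txnip, a thioredoxin inhibitor that binds NLRP3 (log2 difference -0.62, adjusted p = 0.0108).

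Signalling genes downstream of the receptors were more mixed. In the list for IL-1, IL-18 and IL-33, 2 of 10 genes tested were higher and 2 lower at 8 weeks, 6 and 2 at 20 weeks, and 4 and 1 at 34 weeks. Il1a, which encodes IL-1α, was at 185 ± 100.2 CPM in HFD and 30.2 ± 17.0 CPM in CD mice at 20 weeks (6 mice each, SD; log2 difference 2.49, adjusted p = 0.00363). Myd88, the adaptor shared by IL-1 receptors and Toll-like receptors, was lower in HFD mice at 8 and 20 weeks without overlap at either time (log2 differences -1.09 and -0.999, adjusted p = 6.32e-05 and 6.47e-05). Il18bp, which encodes the soluble inhibitor of IL-18, was lower at 8 weeks (log2 difference -1.06, adjusted p = 1.35e-05), 20 weeks (-0.42, adjusted p = 0.0330) and 34 weeks (-0.56, adjusted p = 0.0047). Il18r1, Il18rap, Sigirr, Il1r2, Il1rl1, Il1rl2, Il33 and Il1f9 were below the level cut.

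In the TNF list, 4 of 26 genes tested were higher and 6 lower at 8 weeks, 9 and 5 at 20 weeks, and 12 higher at 34 weeks, with median log2 differences of -0.15, 0.13 and 0.32. The 4 of 26 genes higher at 8 weeks stand beside 29.8% of all genes. Birc2, a ubiquitin ligase of the TNFR1 complex, was at 56.4 ± 10.1 CPM in HFD and 107 ± 13.0 CPM in CD mice at 20 weeks without overlap (log2 difference -0.93, adjusted p = 4.99e-08), and both it and Rela were also called lower at 8 weeks. Rela, the p65 subunit of NF-kB, was lower too (156 ± 20.2 CPM in HFD and 278 ± 41.5 CPM in CD mice at 20 weeks, log2 difference -0.83, adjusted p = 1.49e-05), whereas Rel, the subunit c-Rel found mainly in blood cells, was higher at 34 weeks (log2 difference 1.49, adjusted p = 0.00439). Lta and Ltb, 2 TNF family cytokines, were below the level cut, with at most 0.408 and 0.911 CPM in any mouse.

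Which genes varied most like each of the 9 was described over the 38 mice, again as deviations of log2(CPM + 1) from the group means, among all genes tested. Tnf was most like Tnfsf9, Tnip3 and Slfn2 (Pearson 0.95, 0.92 and 0.91), and Il1b most like Ptgs2, Marcksl1 and Orai2 (0.93, 0.91 and 0.89). Il1rn was followed by Slfn2, Cxcl2 and B4galt5 (0.95, 0.93 and 0.92), Nlrp3 by Cxcl2, Gpr132 and Plek (0.94, 0.94 and 0.94), and Tnfrsf1b by Rab8b, Stx3 and Sh3pxd2b (0.97, 0.94 and 0.94). Casp1 was most like Lrrk1, Fmn1 and Fstl1 (0.90, 0.90 and 0.89). The other receptors and Il18 kept other company: Il1r1 was most like Csf1, Marchf3 and Gorab (0.86, 0.85 and 0.84), Tnfrsf1a like Mt2, Rtn4rl2 and Mat2a (0.80, 0.80 and 0.76), and Il18 like Hsd17b11, Galk2 and Ppt2 (0.80, 0.80 and 0.79).

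Among themselves, Tnf, Il1b, Il1rn, Tnfrsf1b, Nlrp3 and Casp1 had Pearson correlations of 0.51 to 0.89, the lowest between Il1b and Casp1 and the highest between Tnfrsf1b and Il1rn. Tnfrsf1a had correlations of -0.24 to -0.02 with these 6 genes and 0.49 with Il1r1. All of these values share the same 38 libraries and the depth of each.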

How the data were processed

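Stranded mRNA libraries of perigonadal adipocytes were sequenced, and the authors aligned the reads to mm10 with STAR (2.5.2b) and counted those on the exons of GENCODE genes with featureCounts (Subread 1.5.1). The authors deposited CPM with the 3 technical replicates of a mouse merged (114 samples, 38 mice). Each column summed to 1000000, so the TMM factors that the methods name were not visible, and 100% of values were whole reads within a tolerance of 0.1.

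limma 3.58.1 (R 4.3.3) was applied to log2(CPM + 1) with 6 group means and 32 residual degrees of freedom. edgeR 4.0.16 and DESeq2 1.42.0 on recovered reads, other scalings, filters and weights and the omission of each mouse were alternatives. Only the limma fit was tested on simulated data. The same spread was set there for every gene, which does not cover genes as uneven as Il1b. Ratios were tested by exact permutation over mice. The p-values measure the spread between mice, and the precision given by depth covers counting error only.

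The 9 genes were chosen by symbol and without use of their values. Earlier results of these data were known when they, the pathway and marker lists and the tests were chosen. All 9 genes were named, besides at each time the 3 pathway genes with the largest called difference in each direction, the first gene listed of each marker list and the 3 genes most like each of the 9. Other genes, such as Cfd, Lpl, Ly6g, Csf3r and those below the level cut, were named after their values were seen. Adgre1 and Chil3 of the marker lists and the stromal vascular fraction were not analysed here.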

Additional observations from a re-analysis of the deposited data

Results flagged for a closer look

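Of 54 combinations of gene and group examined for a mouse far from the others, 1 stood out, where chance alone gives about 1 in 20. Casp1 in CD mouse 1 of 20 weeks was at 36.7 CPM, and its gap to the next mouse was 0.750 of the range of the group on the scale of log2(CPM + 1).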

How the results depend on the processing

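At 20 weeks the same 8 genes were called in HFD against CD mice in all 11 other settings, and 7 to 8 genes with 1 mouse left out. At 8 weeks, 6 genes were called, and only 1 of 11 other settings called the same ones. There were 3 without a filter on low values, 4 with TMM factors, 4 with edgeR, 9 with array weights and 3 to 7 with 1 mouse left out. At 34 weeks, 5 were called, 2 with array weights, 3 with only the groups of the comparison, 2 with edgeR and 2 to 6 with 1 mouse left out. For CD mice at 20 against 8 weeks, the 1 call became 2 with TMM factors, 2 with median-of-ratios factors, 6 with array weights, 3 with DESeq2 and 0 to 4 with 1 mouse left out. For HFD mice at 34 against 20 weeks, the 2 calls became 1 without a filter, 6 with array weights, 6 with only the groups of the comparison (in both of these Il18 higher and 5 lower), 1 with edgeR and 1 to 5 with 1 mouse left out. The change of the diet difference from 8 to 20 weeks had 2 calls with array weights and 1 with DESeq2, and that from 20 to 34 weeks 1 with array weights. The sign of Il1b at 8 weeks turned with edgeR (-0.041) and DESeq2 (-0.035), and that of Il18 at 20 weeks with TMM (-0.051), median-of-ratios (-0.022), edgeR (-0.069) and DESeq2 (-0.030). The cause of these changes was not tested. Apart from TMM factors, the shares of all genes called under these settings are not given here. The counts therefore do not compare the 9 genes with all genes. Of 941 values for 40 results of single genes, 846 kept direction and side of the threshold, 83 lost and 6 gained the call, and 6 turned.

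Mouse numbers recur in every group. Between the diets, same-numbered mice had correlations of -0.28 to 0.31 at 8 weeks, -0.23 to 0.30 at 20 weeks and -0.51 to 0.53 at 34 weeks. At 8 weeks 0 of 6 correlated best with their own number, at 20 weeks 2 of 6 and at 34 weeks 0 of 6. With so few pairs, this cannot decide whether mice of the same number shared more than the number. With the number as a replicate block, 5, 8 and 4 genes were called between diets at 8, 20 and 34 weeks, and the calls of Il1b at 8 and 34 weeks were lost (adjusted p = 0.0654 and 0.0973). Over time, the block gave 1 and 3 calls in CD and 7 and 2 in HFD mice, and 0 and 0 for the change of the diet difference. In CD mice at 34 against 20 weeks the block lost Tnfrsf1b (adjusted p = 0.0585) and gained Il18 as higher. The values of Il18 rest on 22 to 99 reads per mouse.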
